A study of Mus musculus with 7 samples.

Results

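The nuclear-encoded subunits of the mitochondrial respiratory chain were followed in bulk RNA sequencing of whole liver from C57BL/6 mice. All mice had eaten a Western diet for 30 weeks. The 4 libraries labelled H-TBA came from the group with high total bile acids, and the 3 libraries labelled L-TBA from the group with low total bile acids. How the bile acid groups arose and how old the animals were was not stated in the sources used here. Members were taken by gene symbol: those beginning with Nduf followed by a, b, c, s or v and a digit, those beginning with Uqcr, Cox4 to Cox8 or Atp5, and Sdha to Sdhd, Cyc1 and Cycs. Of the 37620 gene entries in the count table, 96 matched and 6 of these were left out as named pseudogenes, which left 90 members. Of the 90 members, 38 belonged to complex I, 4 to complex II, 9 to complex III, 1 was cytochrome c, 21 belonged to complex IV and 17 to complex V. Ndufa4 and its relative Ndufa4l2 carry complex I symbols and were counted with complex IV, where the Ndufa4 protein is found.

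The respiratory chain of the inner mitochondrial membrane passes electrons from NADH and succinate to oxygen and pumps protons, and ATP synthase uses the proton gradient to make ATP. Complexes I, III, IV and V are built from nuclear and mitochondrial gene products, while complex II is encoded in the nucleus alone. Within each complex a small catalytic core carries the redox centres or the nucleotide sites, and many small accessory subunits serve assembly, stability and contact between complexes. Hepatocytes are rich in mitochondria and use this chain to oxidise fatty acids.

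The libraries held between 9996990 and 12152613 counts, and the 90 members took 1.06% to 1.15% of these in H-TBA and 1.16% to 1.21% in L-TBA. Among the 4 H-TBA libraries, H-TBA 1 had the highest level in 66 of the 84 tested members, and H-TBA 4 the lowest in 54. Levels are given as CPM, the counts of a gene relative to its library's total after scaling by the trimmed mean of M values, and fold changes as H-TBA over L-TBA on the log2 scale. No label ties a library to an animal of its own, so the p-values reflect the spread of these 7 libraries. In whole liver, fewer cells of a type and less RNA per cell cannot be told apart.

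Many respiratory chain transcripts were lower in H-TBA livers, with at least 1 lower member in each of the 5 complexes. By edgeR's quasi-likelihood test with Benjamini-Hochberg adjustment over 15249 genes, 38 of the 84 tested members were lower at an adjusted p under 0.05, which is 45.2% against 10.7% of all tested genes. No member passed as higher, against 13.1% of all tested genes. A single member, Ndufa4l2, was higher at an unadjusted p under 0.05, and DESeq2 and limma-voom called 0 higher. The log2 fold change was negative in 77 members and positive in 7, against 49.4% negative over all tested genes, and its median was -0.28 against 0.00. All H-TBA libraries lay below all L-TBA libraries in 51 members (16.3% of all tested genes), and above them in 1 (17.2% of all tested genes). With L-TBA replicate 1 left out, 25 members were lower, and scaling by library totals, which raised the median of all genes by 0.16, gave 24 lower and 2 higher members.

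Summed cholangiocyte markers stood apart between the groups, while those of hepatocytes and leukocytes overlapped. The counts of called markers are to be read against 10.7% lower and 13.1% higher among all tested genes. Cholangiocyte markers were higher for 11 of 12 genes, with a median log2 fold change of 1.99, and summed to 1080 to 2030 CPM in H-TBA and 553 to 835 CPM in L-TBA. H-TBA 1, the library nearest to L-TBA in the respiratory genes, had the lowest sum of its group, at 1080 CPM. H-TBA 4, the lowest in 54 of the 84 tested members, summed to 1705 CPM, below H-TBA 2 at 1780 CPM and H-TBA 3 at 2030 CPM. Hepatocyte markers had 2 lower and 3 higher of 11, and summed to 69485 to 77551 CPM in H-TBA and 72598 to 80755 CPM in L-TBA. Much of this sum was Alb, which averaged 37120 CPM in H-TBA and 41020 CPM in L-TBA and was not called. The lower ones were Ttr at -0.45 and Apob at -0.40, and the higher ones Cps1 at 1.13, Ass1 at 1.08 and Ahsg at 0.43. Leukocyte markers had 3 of 15 lower and summed to 352 to 416 CPM in H-TBA and 399 to 616 CPM in L-TBA. Much of this sum was Lyz2, which averaged 254.3 CPM in H-TBA and 273.8 CPM in L-TBA and was not called. The lower ones were Clec4f at -1.54, S100a8 at -1.11 and Adgre1 at -0.60. The part of these cells in the respiratory result was not tested. Brown fat and striated muscle also express the muscle isoforms. Some of their defining genes were at or near 0 counts. Ucp1 had 2 counts over H-TBA and 1 over L-TBA, Myh4 0 and 0, and Ckm 1 and 2. The 8 brown fat markers summed to 72.9 to 124 CPM in H-TBA and 153 to 262 CPM in L-TBA. Of the 4 tested, 2 were lower and 1 higher. The lower ones were Cidea, a lipid droplet gene that fatty liver also expresses, at -4.43, and Ppara, which hepatocytes also express, at -1.09. Ppara, Cidea and Elovl3 made up most of the brown fat sum. They averaged 54.9, 2.61 and 28.3 CPM in H-TBA, against 117.0, 55.9 and 32.3 CPM in L-TBA. Prdm16 was the higher one, at 1.96. The 10 muscle markers summed to 2.54 to 3.33 CPM in H-TBA and 2.76 to 3.68 CPM in L-TBA. The 1 tested, Acta1, had 109 counts over H-TBA and 87 over L-TBA and was not called.

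**Figure D1:**
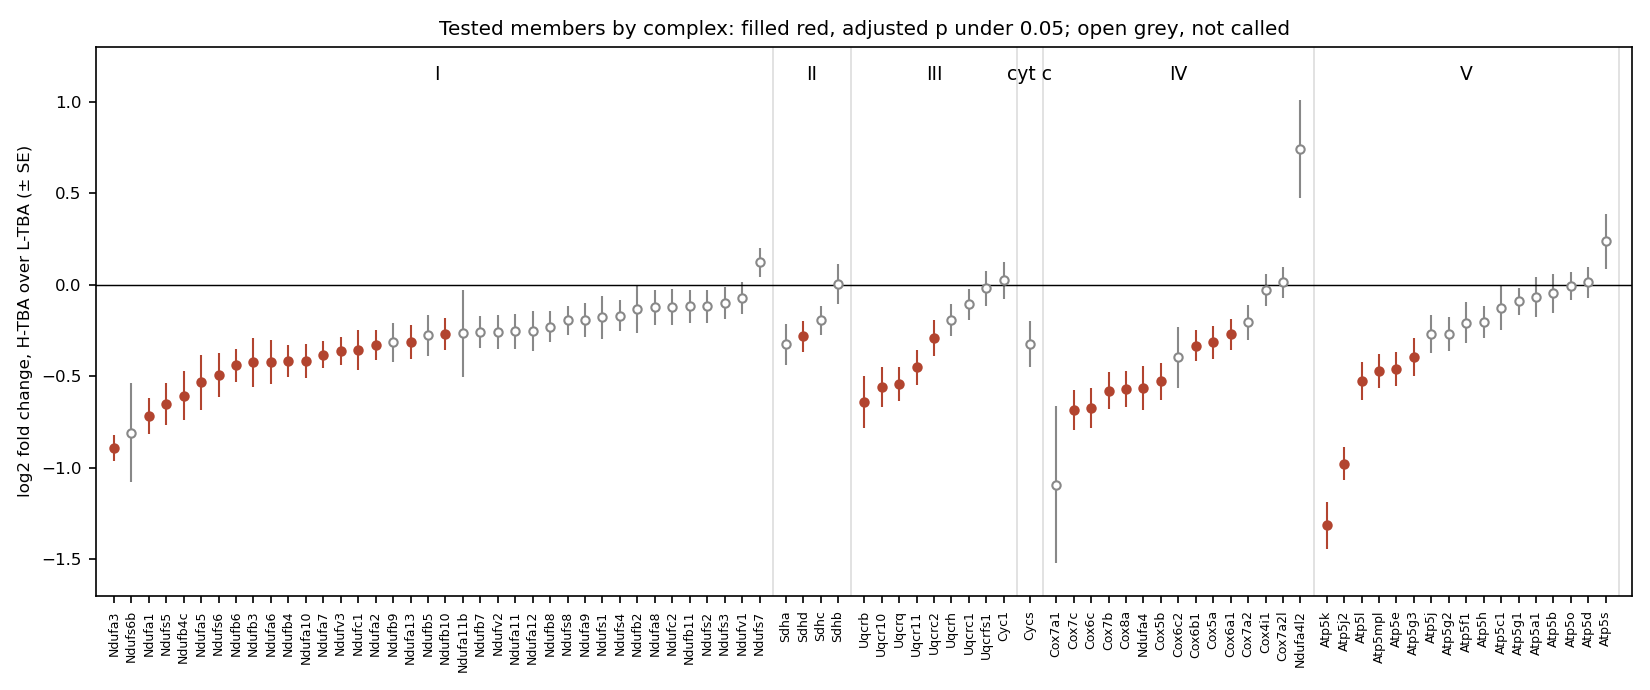
Log2 fold change (H-TBA over L-TBA, ± SE) of each of the 84 tested members, grouped by complex and sorted within it. Filled red points are members at an adjusted p under 0.05 by edgeR; all 38 lie below 0, from -0.27 to -1.31, and open grey points were not called.

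Complex I, NADH dehydrogenase, had lower transcript of 17 of its 38 members in H-TBA, with a median log2 fold change of -0.27. The called members were 16 of the 28 accessory subunits and 1 of the 3 near-copies of other members, and none of the 7 core subunits. Ndufa3 (ENSMUSG00000035674), an accessory subunit of the membrane arm, had 43.1, 40.1, 41.4 and 39.6 CPM in the H-TBA libraries, against 79.2, 74.5 and 74.5 CPM in the L-TBA libraries. Every H-TBA library lay far below every L-TBA library, and the spread within each group was narrow. The difference was -0.89 ± 0.07 on the log2 scale (SE; adjusted p = 6.8e-05), or 46.1% less. Ndufa1, another small membrane-arm subunit, had 46.8, 38.3, 37.0 and 35.7 CPM in H-TBA, against 65.6, 60.8 and 68.0 CPM in L-TBA. The groups again did not overlap, at -0.72 ± 0.10 (SE; adjusted p = 0.000686).

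Ndufs5, a subunit on the intermembrane-space side of the membrane arm, averaged 36.6 ± 5.0 CPM in H-TBA (SD, n = 4) and 57.4 ± 5.8 CPM in L-TBA (SD, n = 3), and its log2 fold change was -0.65. Ndufa7, an accessory subunit of the matrix arm, averaged 66.7 ± 2.7 CPM in H-TBA and 87.0 ± 2.3 CPM in L-TBA, at -0.38 (adjusted p = 0.00353). The Ndufa7 call was lost with scaling by library totals (adjusted p = 0.0752), and its adjusted p otherwise ranged down to 0.000149 over the alternatives. Ranges over the alternatives, here and for other members, leave out the fits with the replicate number as a block and those that combine the length correction with a left-out library. The other 13 lower members of complex I lay between -0.27 (Ndufb10) and -0.61 (Ndufb4c, annotated as a processed pseudogene close to Ndufb4, so the 2 may share counts). Of the other near-copies, Ndufs6b was at -0.81 (adjusted p = 0.051) and Ndufa11b at -0.26 (adjusted p = 0.462), at low counts. The complex I count was 11 when H-TBA replicate 4 was left out, and 10 when L-TBA replicate 1 or 3 was.

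The core subunits of complex I, which hold the flavin and the iron-sulfur clusters, had log2 fold changes from -0.26 to 0.12, with a median of -0.12. At an unadjusted p under 0.05, 2 of the 7 were lower; DESeq2 called 0 and limma-voom 1. Ndufs1, the large iron-sulfur subunit, averaged 115 ± 17.6 CPM in H-TBA and 129.9 ± 9.4 CPM in L-TBA, at -0.18 ± 0.12 (SE; adjusted p = 0.308). Ndufv1, which binds NADH and the flavin, averaged 149.7 ± 9.5 CPM in H-TBA and 157.3 ± 10.2 CPM in L-TBA, at -0.07 ± 0.09 (SE; adjusted p = 0.591); its sign turned with scaling by library totals. For both genes the libraries of the groups overlapped. Ndufs7, which carries the last iron-sulfur cluster before ubiquinone, was the member of complex I with a positive value, 0.12 ± 0.08 (SE; adjusted p = 0.297). Ndufa9, an accessory subunit near the ubiquinone site, had no H-TBA library above an L-TBA library but was not called, at -0.19 (adjusted p = 0.162).

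Complex II, succinate dehydrogenase, had 1 of 4 members lower in H-TBA, and a median log2 fold change of -0.24. Sdhd (ENSMUSG00000000171), a membrane anchor, had 189.3, 176.8, 162.7 and 168.3 CPM in H-TBA, against 210.1, 204.0 and 221.4 CPM in L-TBA. The groups did not overlap, but the difference was small, at -0.28 ± 0.09 (SE; adjusted p = 0.0347). The Sdhd call was lost without any single library other than H-TBA 1, with a correction for gene length (adjusted p = 0.0575) and with scaling by library totals, and its adjusted p ranged from 0.00855 to 0.19 over the alternatives. Sdha, the flavoprotein that oxidises succinate, had 460.5, 391.9, 356.3 and 366.9 CPM in H-TBA, against 483.7, 463.7 and 534.3 CPM in L-TBA. All H-TBA libraries were below all L-TBA libraries and H-TBA 1 was closest to them; the log2 fold change was -0.33 ± 0.11 (SE; adjusted p = 0.054). Sdhb, the iron-sulfur subunit, averaged 161.6 ± 19.1 CPM in H-TBA and 161.1 ± 13.99 CPM in L-TBA.

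Complex III, cytochrome bc1, had 5 of 9 members lower in H-TBA and a median of -0.29. The lower members were 4 of the 5 small accessory subunits and Uqcrc2, a large core protein. Uqcrq (ENSMUSG00000044894), an accessory subunit next to cytochrome b, had 227.1, 190.8, 195.6 and 187.9 CPM in H-TBA, against 297.9, 285.5 and 290.6 CPM in L-TBA. H-TBA 1 was the highest of its group and still well below the lowest L-TBA library. The difference was -0.54 ± 0.09 (SE; adjusted p = 0.00199), and Uqcrb, Uqcr10 and Uqcr11, likewise small accessory subunits, lay at -0.64, -0.56 and -0.45. Uqcrc2 passed narrowly, at -0.29 (adjusted p = 0.0494), and was lost without any single library other than H-TBA 1; its adjusted p ranged from 0.0122 to 0.185 over the alternatives.

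The electron carriers of complex III gave no call. Cyc1, cytochrome c1, had 191.3, 177.2, 143.6 and 161.9 CPM in H-TBA, against 159.1, 166.6 and 171.3 CPM in L-TBA. The H-TBA libraries lay on both sides of the L-TBA libraries, and the difference was 0.02 ± 0.10 (SE; adjusted p = 0.894). Uqcrfs1, the Rieske iron-sulfur protein, stood at -0.02 ± 0.10 (SE; adjusted p = 0.909), and at an unadjusted p under 0.05 neither carrier was lower; DESeq2 and limma-voom also called 0. Uqcrc1, the other core protein, averaged 219.6 ± 10.7 CPM in H-TBA and 236.6 ± 6.5 CPM in L-TBA, at -0.11 (adjusted p = 0.386). Cycs, soluble cytochrome c, averaged 78.9 ± 12.8 CPM in H-TBA and 98.7 ± 10.7 CPM in L-TBA, at -0.32 ± 0.13 (SE; adjusted p = 0.0847). The pseudogene entry Uqcrh-ps1, which is no member, summed to 118 counts in H-TBA and 247 in L-TBA (log2 fold change -1.55), while its parent Uqcrh was at -0.19 (adjusted p = 0.13), so how reads were divided between them is uncertain.

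Complex IV, cytochrome c oxidase, had 9 of its 15 tested members lower. Its median of -0.40 was the lowest of the 5 complexes, though with the correction for gene length those of complexes II and III were lower. All 9 were among the 11 accessory subunits that make up the liver enzyme. Cox7c (ENSMUSG00000017778), a subunit with a single membrane helix, had 85.9, 78.2, 70.0 and 61.7 CPM in H-TBA, against 119.9, 109.5 and 126.8 CPM in L-TBA. Cox6c, a similar small subunit, had 135.6, 109.9, 104.4 and 98.7 CPM in H-TBA, against 182.7, 169.3 and 185.3 CPM in L-TBA. In both genes every H-TBA library was below every L-TBA library, and H-TBA 1 was the nearest to L-TBA. The log2 fold change of Cox7c was -0.68 ± 0.11 (SE; adjusted p = 0.00153) and that of Cox6c -0.68 ± 0.11 (SE; adjusted p = 0.00147).

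Cox7b and Cox8a, also small membrane subunits, stood at -0.58 and -0.57, Ndufa4 at -0.57, and Cox5b, the zinc-binding matrix subunit, at -0.53. Cox6b1, on the intermembrane-space side, Cox5a, which binds early to the catalytic core, and Cox6a1 followed at -0.33, -0.32 and -0.27. The calls of Cox6b1, Cox5a and Cox6a1 were lost with scaling by library totals and with the length correction, and their adjusted p over the alternatives ranged from 0.00186 to 0.202, 0.00522 to 0.138 and 0.00763 to 0.256. Cox4i1, the largest nuclear subunit, had 473.1, 452.0, 488.2 and 444.4 CPM in H-TBA, against 471.2, 461.9 and 487.6 CPM in L-TBA. The ranges of the groups covered each other, and the difference was -0.03 ± 0.09 (SE; adjusted p = 0.855), with a positive sign under scaling by library totals and with the length correction. Cox7a2 was at -0.21 (adjusted p = 0.145), and Cox7a2l, a factor that links complexes III and IV, at 0.01 (adjusted p = 0.934).

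Complex V, ATP synthase, held the largest fall of any member, in a subunit of its membrane part. Of its 17 members, 6 were lower in H-TBA, with a median of -0.21. Atp5k (ENSMUSG00000050856), subunit e of the membrane part, had 34.3, 27.6, 28.5 and 22.7 CPM in H-TBA, against 67.7, 63.1 and 79.9 CPM in L-TBA. The highest H-TBA library lay well below the lowest L-TBA library, and the log2 fold change of -1.31 ± 0.13 (SE; adjusted p = 0.000134) was the most negative of the 84 tested members. Atp5j2 (ENSMUSG00000038690), subunit f, had 41.9, 35.0, 38.1 and 33.8 CPM in H-TBA, against 73.1, 68.9 and 78.0 CPM in L-TBA, at -0.98 ± 0.09 (SE; adjusted p = 0.000105). Atp5l, subunit g, and Atp5mpl, a small proteolipid, were at -0.52 and -0.47, so all 4 members classed here as small membrane subunits passed. The c ring was classed apart from these.

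The catalytic head of ATP synthase gave 1 call among its 5 subunits. Atp5b (ENSMUSG00000025393), the catalytic beta subunit, had 1248, 1133, 990.5 and 1086 CPM in H-TBA, against 1096, 1157 and 1200 CPM in L-TBA. H-TBA 1 was the highest and H-TBA 3 the lowest of the 7 libraries. The difference was -0.05 ± 0.11 (SE; adjusted p = 0.793), and that of Atp5a1, the alpha subunit, was -0.07 ± 0.11 (SE; adjusted p = 0.696); both signs turned with scaling by library totals. Atp5e, the small epsilon subunit, was the called member of the head, at -0.46 (adjusted p = 0.00534). None of the 4 peripheral stalk subunits was called by edgeR or DESeq2, 2 of the 4 were lower at an unadjusted p under 0.05, and limma-voom called 1 lower. Atp5g3, which encodes the proton-carrying c subunit, passed at -0.40 (adjusted p = 0.0192). Leaving out H-TBA replicate 4 ended this call, as did leaving out L-TBA replicate 1 or 3, and the adjusted p ranged from 0.0013 to 0.0796 over the alternatives. Its relatives Atp5g2 and Atp5g1 were at -0.27 (adjusted p = 0.0521) and -0.09 (adjusted p = 0.419).

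**Figure D2:**
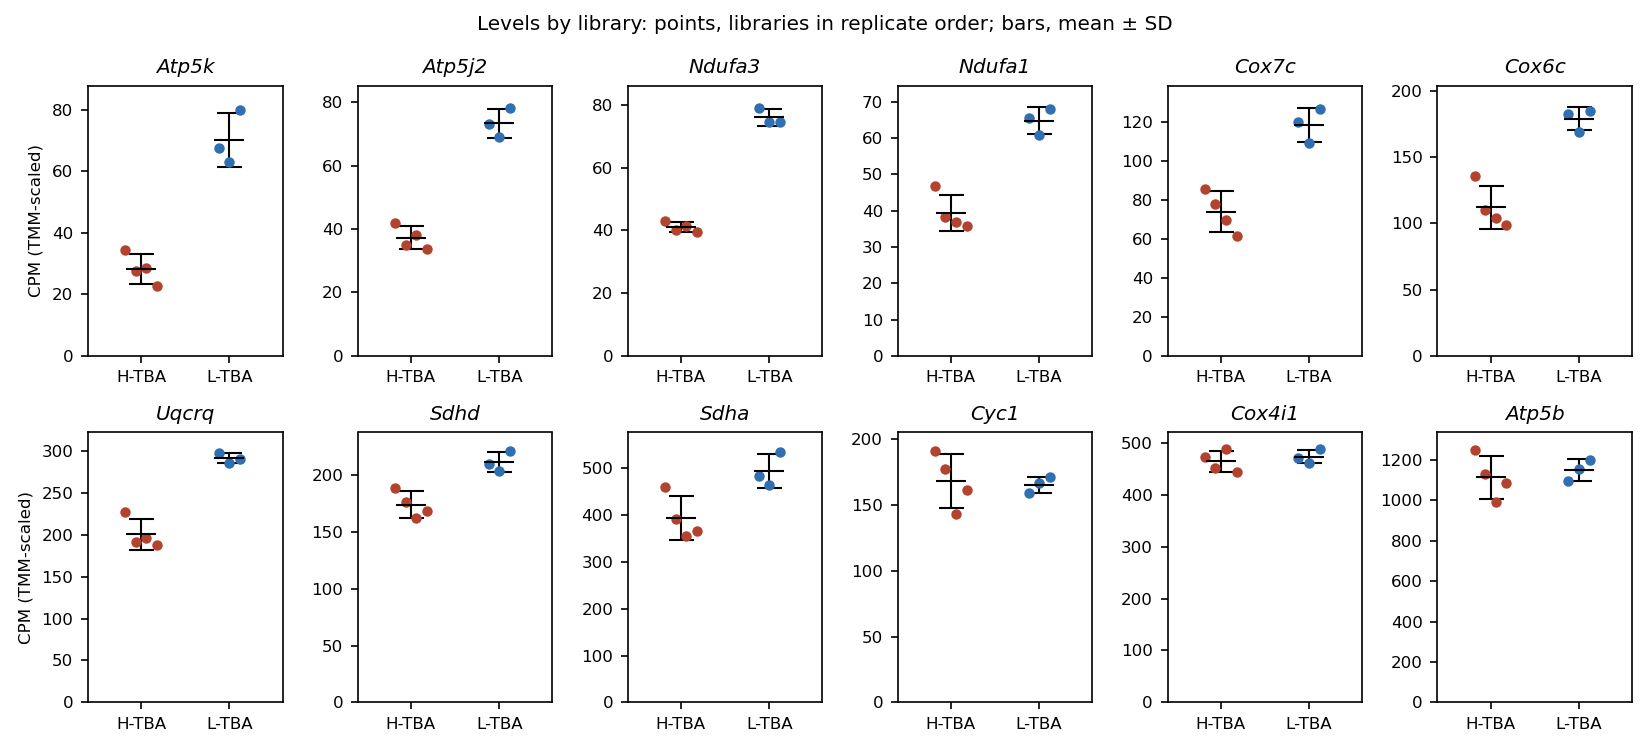
Level in CPM (linear axis from 0) of 12 members in each library, H-TBA in red on the left of each panel and L-TBA in blue on the right, with mean ± SD. The libraries of the groups stand apart in Atp5k, Atp5j2, Ndufa3, Ndufa1, Cox7c, Cox6c, Uqcrq, Sdhd and Sdha, and overlap in Cyc1, Cox4i1 and Atp5b.

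Across the complexes, the 13 subunits that carry electrons or bind the nucleotides had a median log2 fold change of -0.07. They were the 7 core subunits of complex I, Sdha, Sdhb, Cyc1, Uqcrfs1, Atp5a1 and Atp5b. By edgeR 0 of them were called, against 10.7% lower and 13.1% higher among all tested genes. Their median transcript length was 1623 bases, against 737 bases over all tested members. At an unadjusted p under 0.05, 3 of the 13 were lower, DESeq2 called 1 and limma-voom 2; Sdha, Ndufv2 and Ndufs8 passed as lower and Ndufs7 as higher under at least 1 of the same alternatives. Summed over these 13 genes, the level was 4183, 3901, 3393 and 3559 CPM in H-TBA, against 3880, 3889 and 4255 CPM in L-TBA, with the groups overlapping. Summed over the other 77 members it was 7559, 7063, 6603 and 6308 CPM in H-TBA, against 8525, 8252 and 8996 CPM in L-TBA. These sums did not overlap, and the H-TBA mean was 19.9% lower, against 6.21% lower for the 13. Atp5b and Atp5a1, at means of 1114 and 930.5 CPM in H-TBA, made up much of the sum of the 13, which averaged 3759 CPM there. The test of a difference between these sets was not run, since genes are not replicates.

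By complex, the summed level was lower in H-TBA by 20.8% for complex IV, 17.4% for complex I, 16.6% for complex III, 15.2% for complex II and 11.01% for complex V. Complex IV summed to 1861 ± 132 CPM in H-TBA (SD, n = 4) and 2350 ± 101 CPM in L-TBA (SD, n = 3). In complexes I to IV the highest H-TBA library lay below the lowest L-TBA library. In complex V it did not: H-TBA 1 summed to 4304 CPM, above L-TBA 1 at 4255 CPM and L-TBA 2 at 4245 CPM. By CPM, not divided by transcript length, Atp5b and Atp5a1 were the most abundant members of complex V.

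**Figure D3:**
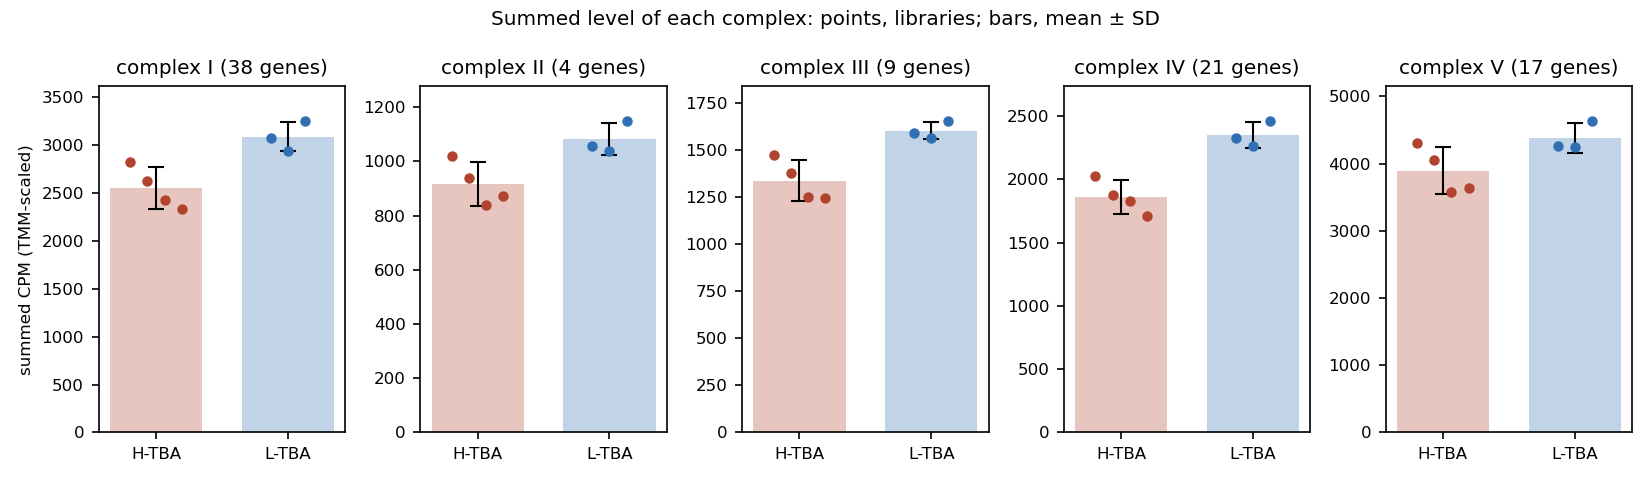
Summed CPM of the members of each complex in each library (points), with mean (bars from 0) and SD; H-TBA is the left bar of each panel. The groups stand apart in complexes I to IV and overlap in complex V, where H-TBA 1 is at 4304 CPM.

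Members lower in H-TBA were mostly short genes, and short genes as a whole were lower in H-TBA. The median transcript length was 737 bases over the tested members and 2588 bases over all tested genes. Across the 84 members the Spearman correlation of length with log2 fold change was 0.57, and across 14608 other tested genes it was 0.15; genes share the same 7 libraries and are not independent. In each library, genes of up to 750 bases took 5.23% to 5.73% of the counts in H-TBA and 6.37% to 6.70% in L-TBA, with H-TBA 4 the lowest.

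Members were therefore set beside other protein-coding genes of similar length. Under 1000 bases, 32 of 56 members were lower, with a median of -0.39, against 160 of 854 other protein-coding genes (18.7%) with a median of -0.09. Among genes of at least 20 CPM these counts were 31 of 50 members and 106 of 411 others (25.8%). At 1000 bases or more, 6 of 28 members were lower, with a median of -0.18, against 9.7% of 12096 other protein-coding genes. Of those at 20 CPM or more, 6 of 27 members were lower, against 875 of 5826 others, with medians of -0.19 and -0.05. The share of lower genes among the others was thus nearer to that of the members at this level. Of members up to 500 bases, 10 of 16 were lower, against 18.6% of other genes in that class.

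When each library was corrected for its trend with gene length, 30 of the 84 members were lower, against 10.9% of all tested genes, and 1 was higher, against 12.9%. Of these 30, 29 were also lower without the correction. By complex, 12 of complex I, 1 of complex II, 5 of complex III, 6 of complex IV and 6 of complex V were lower. The correction moved the median of complex IV most, to -0.22, while complexes I, II, III and V came to -0.21, -0.23, -0.30 and -0.12. Lost were Ndufa2, Ndufa6, Ndufb3, Ndufb10, Ndufc1, Sdhd, Cox5a, Cox6a1 and Cox6b1. Sdha passed as lower (adjusted p = 0.045) and Ndufa4l2 as higher (adjusted p = 0.0465). Atp5k, Atp5j2 and Ndufa3 remained at -1.14, -0.92 and -0.76. Leaving out 1 library at a time with the correction gave 16 to 40 lower members, with 16 without L-TBA replicate 3, 18 without H-TBA replicate 4, 20 without L-TBA replicate 1 and 20 without H-TBA replicate 2.

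**Figure D4:**
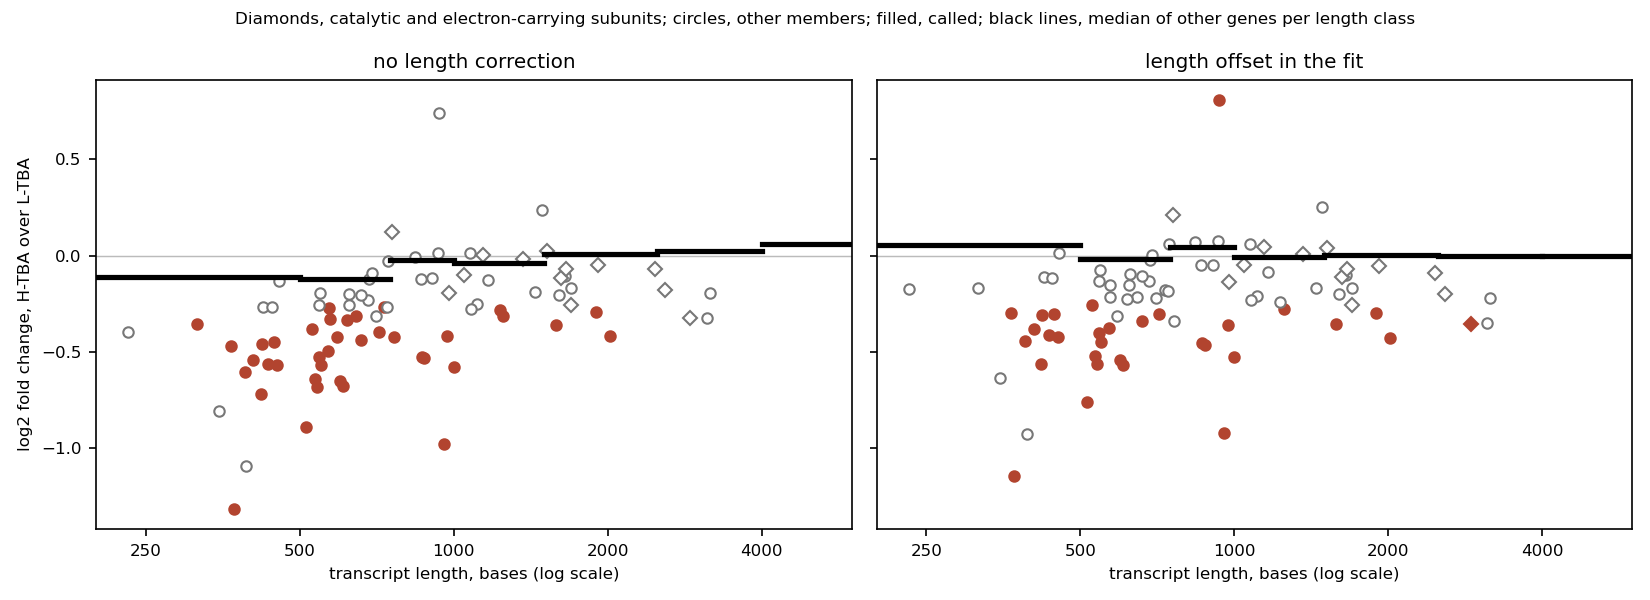
Log2 fold change (H-TBA over L-TBA) of each member against transcript length in bases (log axis), without (left) and with (right) the length correction. Diamonds are catalytic and electron-carrying subunits, filled points were called, and black lines are the medians of other genes per length class; the filled circles lie below these lines in both panels, apart from Ndufa4l2 on the right.

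Several subunits of complex IV and the c ring have paralogous isoforms, and their ratio was taken per transcript length within each library. Ndufa4l2, an isoform induced by low oxygen in other cells, had 3.18, 2.83, 2.36 and 2.67 CPM in H-TBA, against 2.25, 1.44 and 1.20 CPM in L-TBA. All H-TBA libraries were above all L-TBA libraries, but the difference of 0.74 ± 0.27 (SE) was not called (adjusted p = 0.0665). It was called with the length correction, with scaling by library totals and without L-TBA replicate 1, and its adjusted p ranged from 0.0334 to 0.213 over the alternatives. Relative to Ndufa4, Ndufa4l2 made 0.603% to 0.766% in H-TBA and 0.182% to 0.371% in L-TBA.

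The isoforms of other tissues, such as muscle, heart and testis, had few counts. Cox7a1 summed to 36 counts in H-TBA and 55 in L-TBA (log2 fold change -1.09 ± 0.43, SE; adjusted p = 0.0894), and made 0.588% to 2.40% of Cox7a2 in H-TBA and 1.61% to 2.92% in L-TBA. Cox6b2, the testis form, had 6, 10, 14 and 10 counts in H-TBA, against 5, 2 and 5 in L-TBA. Cox4i2 had 18 counts over H-TBA and 10 over L-TBA, Cox6a2 8 and 5, and Cox8b 7 and 5; these 4 genes did not reach the count minimum and were not tested. Cox7b2 and Cox8c had 0 counts in all 7 libraries, where 3 counts, or 0.2469 to 0.3001 CPM, are the limit that a count of 0 allows, for counting error alone. In the c ring, Atp5g1 made 17.5% to 19.4% of Atp5g3 in H-TBA and 14.2% to 16.6% in L-TBA, while Atp5g2 made 28.1% to 34.6% in H-TBA and 22.8% to 32.9% in L-TBA.

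Levels were compared between members as CPM per kilobase of transcript. In H-TBA the highest were Cox4i1 at 623.4, Atp5b at 581.6, Atp5g3 at 528.9, Uqcrq at 494.6 and Ndufa4 at 451.2 CPM per kilobase. In L-TBA the same 5 genes led in another order, with Uqcrq at 719.3, Atp5g3 at 695.5, Ndufa4 at 668.0, Cox4i1 at 635.7 and Atp5b at 600.7. Uqcrq, Atp5g3 and Ndufa4 were called lower, and Cox4i1 and Atp5b were not.

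Transcription of many of these genes is driven by the factor NRF1 and by ETS factors such as GABPA, so their promoters were searched. RefSeq promoters of 300 bases, 250 before and 50 after the gene start in build GRCm38.p6, were matched to 69 of the 90 members. The build behind the counts is mm9, so the coordinates given here belong to the RefSeq table alone. The motif bound by NRF1 (GCGCA, any base, then GCGC) was found on either strand in 16 of the 69 member promoters (23.2%), against 4.78% of 27025 promoters in the table. The ETS motif CCGGAAG, on either strand, was found in 15 of the 69 (21.7%), against 9.12% of all. In 0 of the 69 promoters did a match to the NRF1 motif share bases with a match to the ETS motif. Among members lower in H-TBA, 9 of 31 held each motif (29.0%), against 7 of 35 for NRF1 and 6 of 35 for ETS among members not called.

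Shown here, 5′ to 3′ along the gene's strand, are the promoters of Atp5k, Atp5j2, Ndufa3 and Cox7c, which were among the lowest in H-TBA relative to L-TBA, and of Atp5b, which was not called. They lie at chr5:108434350-108434649 (minus strand), chr5:145191492-145191791 (minus strand), chr7:3617123-3617422 (plus strand), chr13:86046746-86047045 (minus strand) and chr10:128083057-128083356 (plus strand), in that order. Capitals mark a match to the NRF1 motif and, nearer to the gene start, a match to the ETS motif on the opposite strand.
Atp5k: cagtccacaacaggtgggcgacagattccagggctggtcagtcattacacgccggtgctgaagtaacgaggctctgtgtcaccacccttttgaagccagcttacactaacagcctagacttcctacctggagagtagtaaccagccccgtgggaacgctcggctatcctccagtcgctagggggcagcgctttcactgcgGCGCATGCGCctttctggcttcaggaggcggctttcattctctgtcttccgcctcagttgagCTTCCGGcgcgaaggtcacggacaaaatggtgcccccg
Atp5j2: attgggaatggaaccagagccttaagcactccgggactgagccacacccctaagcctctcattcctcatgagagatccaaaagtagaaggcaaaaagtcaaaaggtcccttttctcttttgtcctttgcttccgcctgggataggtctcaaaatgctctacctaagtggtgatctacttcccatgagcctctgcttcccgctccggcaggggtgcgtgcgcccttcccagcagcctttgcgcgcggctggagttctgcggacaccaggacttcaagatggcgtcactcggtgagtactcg
Ndufa3: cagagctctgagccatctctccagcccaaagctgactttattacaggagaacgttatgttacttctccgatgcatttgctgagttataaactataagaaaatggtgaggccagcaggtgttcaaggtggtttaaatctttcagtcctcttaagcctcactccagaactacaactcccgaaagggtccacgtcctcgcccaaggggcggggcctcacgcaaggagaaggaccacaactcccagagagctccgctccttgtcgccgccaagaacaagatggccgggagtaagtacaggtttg
Cox7c: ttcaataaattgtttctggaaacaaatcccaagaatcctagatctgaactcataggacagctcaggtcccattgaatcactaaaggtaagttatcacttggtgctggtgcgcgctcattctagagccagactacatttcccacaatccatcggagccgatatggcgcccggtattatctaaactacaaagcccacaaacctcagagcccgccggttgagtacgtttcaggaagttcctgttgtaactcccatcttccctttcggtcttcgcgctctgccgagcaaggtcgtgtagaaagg
Atp5b: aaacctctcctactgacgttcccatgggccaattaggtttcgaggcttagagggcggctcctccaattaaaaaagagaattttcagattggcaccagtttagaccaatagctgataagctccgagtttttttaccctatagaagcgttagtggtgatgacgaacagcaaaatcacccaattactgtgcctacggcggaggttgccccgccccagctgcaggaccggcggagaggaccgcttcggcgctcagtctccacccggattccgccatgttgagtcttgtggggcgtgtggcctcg
Atp5k held 1 match to each motif, and in the other 4 promoters these letters were not found within the 300 bases. A match describes the letters and not binding.

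The genes that work with the nuclear subunits were read from lists chosen by function. Of the 13 subunits encoded by the mitochondrial genome, 12 were lower in H-TBA, with a median log2 fold change of -0.51, and 10 with the length correction. Their summed level was 43403 to 61824 CPM in H-TBA and 70314 to 80910 CPM in L-TBA. mt-Nd5, a proton-pumping subunit of complex I, averaged 2566 ± 324 CPM in H-TBA and 3990 ± 473 CPM in L-TBA, at -0.64 (adjusted p = 0.00577). The short genes mt-Nd4l and mt-Atp8, each of which overlaps a neighbour on the same transcript, were at -1.61 and -4.07, and counts of overlapping genes are uncertain. Of the mitochondrial subunits of complex IV, mt-Co1, the catalytic subunit, was lower at -0.45 (adjusted p = 0.0442), mt-Co2 at -0.57 and mt-Co3 at -0.45, and the mt-Co3 call was lost with the length correction (adjusted p = 0.0675).

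Of the assembly factors, 2 of 16 for complex I, 4 of 10 for complexes II and III, 6 of 20 for complex IV and 1 of 5 for complex V were lower, against 10.7% of all tested genes, a share that the complex I factors were close to. With the length correction these counts were 1, 3, 5 and 1, the last being another gene, Atpaf1 (adjusted p = 0.0395). Cox16, known in human cells for a role in the assembly of mt-Co2, averaged 0.597 ± 0.109 CPM in H-TBA and 3.05 ± 0.93 CPM in L-TBA, at -2.35 (adjusted p = 0.000607). Pet100 and Taco1, a complex IV chaperone and an activator of mt-Co1 translation, were at -0.78 and -0.59. Fmc1, known from yeast as an assembly factor of ATP synthase, was at -0.46 (adjusted p = 0.0231), a call lost with the length correction (adjusted p = 0.0754).

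Of 17 tested regulators of mitochondrial biogenesis, 1 was lower, against 10.7% of all tested genes. It was Esrrg, an orphan nuclear receptor that activates oxidative genes, at 0.537 ± 0.305 CPM in H-TBA and 3.75 ± 0.48 CPM in L-TBA. Ppargc1a, the coactivator that drives biogenesis, averaged 15.8 ± 3.2 CPM in H-TBA and 11.8 ± 1.1 CPM in L-TBA, at 0.42 ± 0.17 (SE; adjusted p = 0.0929). Nrf1 was at 0.11, Esrra at 0.10, Ppargc1b at 0.21, Gabpa at -0.10 and Tfam, the mitochondrial DNA packaging factor, at -0.05, and none of these was called. Atpif1, the inhibitor of ATP synthase, was at 0.23 (adjusted p = 0.267).

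Mitochondrial pathways beside the chain held calls in both directions, to be read against 10.7% lower and 13.1% higher among all tested genes. In the tricarboxylic acid cycle, listed together with the pyruvate enzymes that feed it, 5 of 18 genes were lower and 1 was higher. The lower cycle enzymes were Cs, citrate synthase, at -0.64 and Suclg2, a subunit of succinyl-CoA ligase, at -0.56. The higher one was Fh1, fumarase, at 0.60. The other lower genes were pyruvate enzymes, Pcx at -0.50, Pdha1 at -0.39 and Dlat at -0.35. Coenzyme Q synthesis had 2 lower and 1 higher of 13, with Coq10a and Coq7 at -0.50 and -0.32 and Coq8b at 0.68. Carriers and uncoupling proteins had 2 lower and 2 higher of 14. The lower ones were Slc25a20, the carnitine carrier, at -0.44 and Slc25a5, an ADP/ATP carrier, at -0.40 (adjusted p = 0.0369). The higher ones were Slc25a4, another ADP/ATP carrier, at 0.96 and Slc25a25 at 0.74. Of the ADP/ATP carriers, Slc25a5 averaged 291.7 CPM in H-TBA and Slc25a4 27.2 CPM. The shares in coenzyme Q synthesis and the carriers were near those of all genes. Cristae organisation had 1 lower of 11 (Chchd3, -0.40), also near that of all genes, and protein import 3 lower and 1 higher of 18, with Tomm7, a small outer-membrane subunit, at -0.63. With the length correction protein import kept 1 lower gene, Tomm7, and lost the higher call, of Timm17b (adjusted p = 0.0677), while the counts of the other 4 lists were the same as without it.

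Exons of 29 of the 90 members, and of 10 of the 38 lower ones, overlap exons of another gene in the GENCODE annotation, mostly on the opposite strand, such as Ndufa3 with Tfpt and Cox6c with Vps13b. Whether the counting used strand is not given in the sources used here, so reads of such pairs cannot be told apart. Atp5k, Atp5j2, Ndufa1 and Cox7c had no such overlap.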

How the data were processed

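RNA was measured in 7 whole-liver libraries, 4 H-TBA and 3 L-TBA, and all were used. The values the authors deposited are whole-number read counts for each Ensembl gene identifier, not normalized. The submitters' processing notes name build mm9, DESeq2 1.18.1, TopHat2 2.0.11 and CASAVA without their roles. How reads were counted, whether by strand and with which annotation is not given in the sources used here. The members and the gene lists were chosen with earlier results of these data known.

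Of 37620 entries, 32897 had a symbol in GENCODE M21. Genes were kept with filterByExpr (minimum count 10, minimum total 15), scaled by TMM and tested in R 4.3.3 with edgeR 4.0.16 (quasi-likelihood test, a model of group alone, Benjamini-Hochberg adjustment over 15249 genes). Every adjusted p in the text is from this test unless an alternative is named. Levels are TMM-scaled CPM with SD over libraries, and SE comes from the F statistic. The biological coefficient of variation, common to all genes, was 0.125. Total counts of 9996990 to 12152613 per library set the precision. The limits given for 0 counts cover counting error alone.

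Transcript length was the lower median over a gene's principal, else coding, else basic GENCODE transcripts. The length correction fitted each library's deviation against log length by lowess (span 0.3) and entered it as an offset. It covered 96.3% of tested genes. The scripts were tested on simulated data. Libraries of a group differed with a chi-square of at least 5.65 times the degrees of freedom, so each was counted once.

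Genes given with values were, per complex, up to 4 members with the smallest adjusted p past the threshold, and the isoform pairs. A fixed set of core subunits with Atpif1 and the main regulators was also given, with up to 3 called genes per other list. Some more members and genes of the other lists are named with a value, chosen after their values were seen. Alternatives were DESeq2 1.42.0, limma-voom (limma 3.58.1) with quality weights, library totals with and without the 20 most abundant genes, DESeq2 size factors, no filter, a stricter filter, GC and length offsets, the replicate number as a block, other thresholds and leaving out each library. Offsets from merged exon length, from the trend of other genes and from length with GC, and the count without 4 members annotated as processed pseudogenes, were added after the data were seen.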

Additional observations from a re-analysis of the deposited data

Results flagged for a closer look

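Over 45 quantities in the 4 H-TBA libraries (named members and summed complexes), 1 held a library far from the others by Dixon's test at the 95% level, where chance alone gives about 1 in 20. In Cox8a, a small membrane subunit of complex IV, H-TBA 1 had 121.9 CPM, against 94.4 to 98.2 CPM in the other H-TBA libraries, a ratio of 0.864. All 3 L-TBA libraries, at 150.3, 152.4 and 155.2 CPM, lay above it.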

How the results depend on the processing

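The count of members lower in H-TBA (38) was 42 with DESeq2 size factors, 43 with DESeq2, 52 with limma-voom, 41 with a GC offset, 36 without a filter or with a stricter filter, 30 with the length offset (as with the trend taken from other genes), 29 with a length and GC offset, 32 with merged exon length, 28 with library totals without the 20 most abundant genes and 37 without the annotated pseudogenes. It was 24 with library totals, 24 at an adjusted p of 0.01, 15 with the replicate block and 8 with the length offset and the replicate block together. Leaving out each library gave 25 to 52 lower and 0 to 1 higher members. The count of higher members (0) was 1 with the length offset, with merged exon length, with the trend from other genes and at an adjusted p of 0.1, and 2 with library totals, with or without the 20 most abundant genes. Fewer degrees of freedom remain with the block, and the cause of the other changes was not tested.

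The replicate numbers did not pair the libraries: the deviations of same-numbered libraries correlated at -0.103, -0.059 and -0.063. Under every fit named above, the block included, 8 members stayed called (Atp5j2, Atp5k, Cox6c, Cox7b, Cox7c, Ndufa1, Ndufa3 and Ndufs5), under all but the block 23, and without each single library 25.

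Medians of the log2 fold change moved beyond the replicate spread with library totals, which shifted all genes, to -0.12, -0.084, -0.14, -0.25 and -0.056 for complexes I to V. With library totals without the 20 most abundant genes they were -0.16, -0.12, -0.18, -0.29 and -0.093. The median of complex IV (-0.40) was -0.22 with the length offset, with or without the replicate block, -0.24 with the trend from other genes and -0.30 with merged exon length or with length and GC. Leaving out each library gave -0.35 to -0.23 for complex I, -0.27 to -0.21 for II, -0.35 to -0.24 for III, -0.58 to -0.31 for IV and -0.26 to -0.16 for V. All these medians kept their sign.

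Signs that turned belonged to members near 0 that were not called. Sdhb was -0.0028 with DESeq2 size factors, -0.0029 with DESeq2 and -0.020 with the GC offset, and Cyc1 -0.015 with the GC offset and -0.0049 with length and GC. Uqcrfs1 was 0.0092 with the GC offset, 0.044 with length and GC, 0.035 with the length offset and replicate block, 0.046 with merged exon length, 0.0073 with the trend from other genes, 0.0088 with the length offset and 0.013 with the replicate block. Cox4i1 was 0.061 with the length offset, 0.064 with the replicate block added, 0.026 with merged exon length and 0.052 with the trend from other genes. Atp5g1 was 0.0049 with the length offset and 0.021 with the block added. With library totals, Uqcrfs1 was 0.13, Cox4i1 0.13, Atp5b 0.10, Atp5a1 0.083, Ndufv1 0.083, Atp5g1 0.063 and Uqcrc1 0.047. Without the 20 most abundant genes as well, these were 0.095, 0.090, 0.067, 0.045, 0.044, 0.025 and 0.0085. Leaving out each library gave -0.062 to 0.073 for Sdhb, -0.042 to 0.096 for Cyc1, -0.075 to 0.021 for Uqcrfs1 and -0.105 to 0.0081 for Atp5b. Depth limits the isoforms with few counts, 4 of which were below the count minimum and went untested while 2 had no counts.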
